A study of Mus musculus with 6 samples.

Results

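The genes described here are 5 long noncoding RNA genes, *Malat1*, *Neat1*, *Kcnq1ot1*, *Gas5* and *Snhg12*, in follicular helper T (Tfh) cells of the mouse spleen. They were chosen by name, and each was found exactly once among the 53379 gene identifiers of every library by its identifier in the mouse GENCODE annotation. RNA-seq was performed on 3 *Prdm1*-CKO and 3 CTL mice, with 1 library per mouse. *Prdm1*-CKO mice carried *Prdm1* fl/fl and CD11c-CRE+, so that Blimp-1, the protein of *Prdm1*, was deleted in cells in which the CD11c promoter drives Cre, mainly dendritic cells, and the Tfh cells themselves were not the intended target. CTL mice were either *Prdm1* fl/fl without Cre or *Prdm1* +/+ with CD11c-CRE+, but no label tells these CTL genotypes apart. Sample titles name the deleted group as Blimp1 KO, whereas its genotype field reads KD. All mice were age-matched females, immunized with NP-CGG, and the study's immunization protocol used mice of 6 to 8 weeks of age. Spleens were taken on day 7, and live TCRβ+CD4+CXCR5+PD1+ cells were sorted from each mouse. The question put to these 5 genes is how much of a Tfh library they take, how steady they are among mice and whether they differ between the genotypes.

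Long noncoding RNAs are transcribed and usually processed like messenger RNAs, but they carry no long reading frame that is known to be translated into protein. *Malat1* is retained in nuclear speckles, where splicing factors are stored, and its 3′ end is formed by cleavage beside a transfer-RNA-like structure and is protected by a triple helix in place of a poly(A) tail. *Neat1* is the scaffold of paraspeckles, nuclear bodies that hold RNA-binding proteins, and its gene makes a short polyadenylated and a long isoform. *Kcnq1ot1* is an imprinted antisense transcript that is made from the paternal chromosome and silences neighbouring genes of the *Kcnq1* domain in cis. *Gas5* and *Snhg12* are host genes of small nucleolar RNAs (snoRNAs), which guide the modification of ribosomal RNA and are cut from the introns, while the spliced exons are left as a noncoding RNA. *Gas5* was named for its accumulation in growth-arrested cells, and its spliced RNA is a known substrate of nonsense-mediated decay. In T cells, *Gas5* has been tied to growth arrest and *Malat1* to effector differentiation.

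In GENCODE M21 on GRCm38, *Malat1* (ENSMUSG00000092341) and *Neat1* (ENSMUSG00000092274) lie on the minus strand of chromosome 19, with *Malat1* at chr19:5795690-5802672 and *Neat1* at chr19:5824708-5845478. A gap of 22035 bases separates them. *Kcnq1ot1* (ENSMUSG00000101609) is a single exon of 93092 bases at chr7:143203458-143296549 on the minus strand, antisense to *Kcnq1*, and most of it faces introns of *Kcnq1*. *Gas5* (ENSMUSG00000053332) lies at chr1:161034422-161038539 on the plus strand and has 25 annotated transcripts. *Snhg12* (ENSMUSG00000086290) lies at chr4:132308623-132311024 on the plus strand and has 10. Only *Gas5* had the same identifier version in the deposited files and in this annotation, so the lengths and coordinates of the other 4 genes may differ from those used for counting. Counts per gene cannot separate the long and short isoforms of *Neat1*.

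The counts given here are those assigned to the host genes, and the small RNAs inside them have gene entries of their own. The 10 snoRNA gene entries inside *Gas5* and the 5 inside *Snhg12* had 0 counts in every mouse. *Snord80* in *Gas5* and *Snora16a* in *Snhg12* each have 2 overlapping entries, so the distinct snoRNAs are fewer. All of these entries lay wholly within exon models of their host, where a read overlaps 2 genes. A count of 0 there therefore does not show that the snoRNA was absent. Exon bases shared with another gene made up 17.8% of *Gas5* and 19.6% of *Snhg12*, against 7.72% of *Malat1*, 1.85% of *Neat1* and 1.20% of *Kcnq1ot1*. *Kcnq1*, the potassium channel gene on the opposite strand to *Kcnq1ot1*, had 10 counts in *Prdm1*-CKO replicate 3 and 0 counts in the other 5 mice. Whether the counting used strand is not given in the sources used here, and these values are the direct measure of how little *Kcnq1* exon signal there was.

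The start sites are shown because many snoRNA host genes are known to begin at a terminal oligopyrimidine tract, a run of C and T over the transcription start that is shared with ribosomal protein genes. The sequences are from RefSeq promoters on GRCm38.p6, 100 bases before to 50 bases after each start, 5′ to 3′ on the strand of the gene. Of the 5 genes, 4 were found in that table, and *Neat1* was not. Capitals mark the run of C and T over the start base where it has at least 5 bases, and every match, on either strand, to the CCAAT box, to the cAMP response element core TGACG or to the TATA element TATATA. *Gas5* has 2 RefSeq starts, of which the second is shown.
Gas5 at chr1:161035066-161035215, plus strand: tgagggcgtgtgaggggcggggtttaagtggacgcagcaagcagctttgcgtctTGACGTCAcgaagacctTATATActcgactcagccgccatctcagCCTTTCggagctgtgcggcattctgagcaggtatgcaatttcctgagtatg
Snhg12 at chr4:132308578-132308727, plus strand: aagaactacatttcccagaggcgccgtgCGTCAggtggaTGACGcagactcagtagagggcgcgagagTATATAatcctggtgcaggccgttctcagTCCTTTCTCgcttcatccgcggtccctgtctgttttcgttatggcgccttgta
Malat1 at chr19:5802623-5802772, minus strand: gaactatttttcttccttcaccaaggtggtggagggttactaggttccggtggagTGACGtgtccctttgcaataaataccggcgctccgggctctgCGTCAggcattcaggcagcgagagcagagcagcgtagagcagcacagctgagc
Kcnq1ot1 at chr7:143296498-143296647, minus strand: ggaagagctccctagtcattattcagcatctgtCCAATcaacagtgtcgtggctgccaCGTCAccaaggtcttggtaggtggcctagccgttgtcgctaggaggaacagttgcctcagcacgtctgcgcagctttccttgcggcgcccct
Both snoRNA host genes had such a run over the start base, CCTTTC in *Gas5* and TCCTTTCTC in *Snhg12*, whereas the run was 2 bases in *Malat1* and 0 in *Kcnq1ot1*. A run of at least 5 bases was present in 10.1% of 32851 promoters. The first start of *Gas5* had none. Both host genes also held TATATA, found in 2.64% of windows of this length, and 2 matches to TGACG, found in 13.9%. The pair in *Gas5* overlap within a palindrome, and the pair in *Snhg12* do not overlap. *Malat1* held 2 matches to TGACG and *Kcnq1ot1* held 1, with 1 match to CCAAT, which is found in 23.4% of windows. These matches describe the letters and not the binding of any factor.

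Smart-seq2 starts cDNA from runs of A with an oligo(dT) primer, and the longest runs of A inside the annotated transcripts are shown for *Malat1*, which has no poly(A) tail, and for *Kcnq1ot1*, the longest exon of the 5 genes. The sequences are from the GENCODE M21 transcripts on GRCm38, with 20 bases on each side, and capitals mark the run.
Malat1 at chr19:5795968-5796019, minus strand: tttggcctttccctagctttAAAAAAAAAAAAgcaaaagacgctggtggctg
Kcnq1ot1 at chr7:143226925-143227005, minus strand: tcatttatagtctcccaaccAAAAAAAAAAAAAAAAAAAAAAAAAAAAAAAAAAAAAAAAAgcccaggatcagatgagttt
The run of 12 A in *Malat1* lies 298 bases before the annotated 3′ end. That end need not be the cleaved 3′ end of the mature RNA, and the distance of the run from the cleaved end was not determined. The run of 41 A in *Kcnq1ot1* lies 23487 bases before its annotated 3′ end. *Snhg12* also held a run of 12, while the longest run was 7 in *Neat1* and 5 in *Gas5*. A run of at least 12 was present in 4.07% of 141767 mouse transcripts. Where cDNA began in these transcripts was not tested, since the deposited values have no positions.

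Library totals ran from 7147601 to 16973392 counts, and the medians were 8623180 in CTL and 14885913 in *Prdm1*-CKO mice. CTL replicate 2 stood apart on the first principal component of log2 CPM, at 134.6 against -29.14 to -23.99 in the other mice. CT010467.1, a ribosomal RNA gene, took from 5.14% to 14.7% of the counts, and mitochondrial genes took from 2.11% to 5.83%. *Prdm1* itself was at 27.5 to 30.0 CPM in CTL mice and 30.2 to 30.9 CPM in *Prdm1*-CKO mice, which is no check of the labels because the deletion was aimed at other cells. All 10 Tfh markers had counts in every mouse, at summed levels of 3477 to 4518 CPM in CTL and 3489 to 3680 CPM in *Prdm1*-CKO mice. Markers of other cells were present as well, and their part in the levels below was not tested. All 8 macrophage markers had counts in every mouse, at summed levels of 499 to 1396 CPM in CTL and 1024 to 1417 CPM in *Prdm1*-CKO mice, and all 8 had a log2 fold change above 0. The 5 plasma cell markers, *Prdm1* included, summed to 434 to 672 CPM and 675 to 894 CPM, apart by a narrow margin, with all 5 above 0. The 6 B cell markers, all above 0, summed to 102 to 167 CPM and 144 to 221 CPM, and the 5 erythroid markers to 7.33 to 16.7 CPM and 11.9 to 43.8 CPM, with all 4 that were tested above 0. Dendritic cell markers summed to 55.3 to 113 CPM and 83.7 to 123 CPM, and CD8 and NK cell markers to 50.7 to 62.2 CPM and 46.6 to 71.8 CPM. The log2 fold change was above 0 in 2 of 5 dendritic cell, 3 of 5 CD8 and NK and 4 of 10 Tfh markers. Over all 14555 genes tested, it was above 0 in 7439. At an unadjusted edgeR p of 0.05, 2 of the 4 tested erythroid markers passed. So did 1 of 10 Tfh, 1 of 5 plasma cell, 1 of 8 macrophage and 1 of 5 CD8 and NK markers, but 0 B cell and 0 dendritic cell markers. Over all genes tested, 0.928% passed as higher and 1.42% as lower in *Prdm1*-CKO mice.

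The 5 genes together took about the same small part of the library in each CTL mouse and varied more among *Prdm1*-CKO mice. Their summed share of all gene counts was 0.208%, 0.204% and 0.206% in CTL replicates 1 to 3, whereas *Prdm1*-CKO replicates 1 to 3 had 0.152%, 0.227% and 0.191%. *Malat1* made up between 71.7% and 78.7% of these counts. *Prdm1*-CKO replicate 1 had the lowest share of the 6 mice and *Prdm1*-CKO replicate 2 the highest, so the range of *Prdm1*-CKO mice enclosed that of CTL mice.

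**Figure D1:**
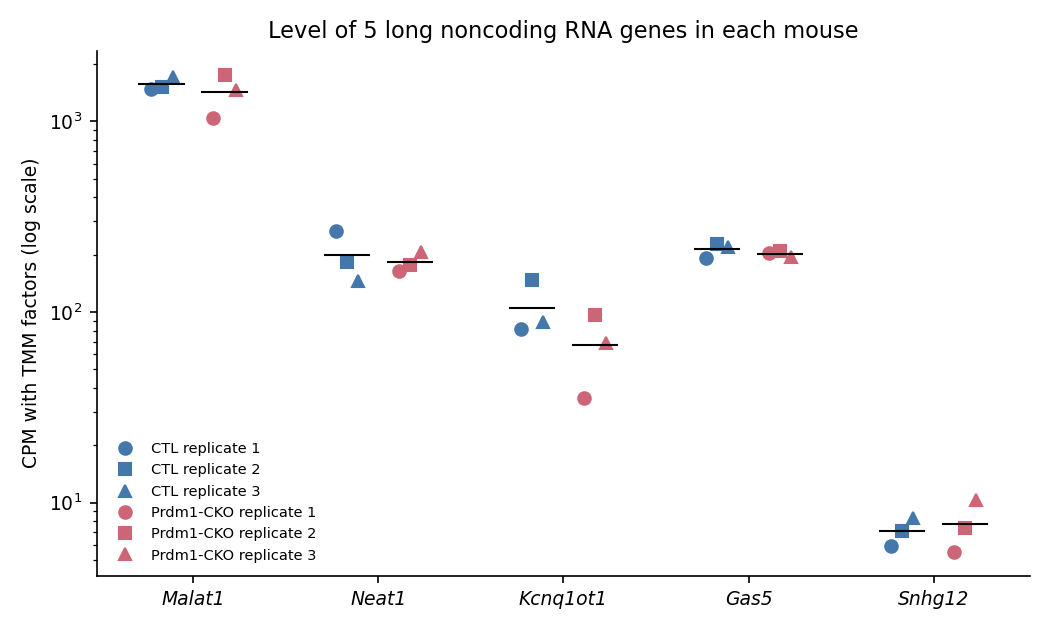
Level of the 5 genes in each mouse, as CPM with TMM factors on a log axis, with blue symbols for CTL and red symbols for *Prdm1*-CKO mice and a bar at the mean of 3 mice. *Malat1* lay between 1042 and 1762 CPM and *Snhg12* between 5.52 and 10.3 CPM, and the groups overlap for every gene.

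Per length, the order of the 5 genes was the same in all 6 mice. In TPM, which divides counts by the summed length of annotated exons and scales each library to the same total, the mean of 6 mice was 600 ± 81.0 (SD, n = 6) for *Malat1* and 156 ± 12.7 for *Gas5*. It was 26.0 ± 7.04 for *Neat1*, 8.59 ± 1.61 for *Snhg12* and 2.60 ± 1.13 for *Kcnq1ot1*. No neighbours in this order overlapped: the lowest value of *Neat1* was 17.7 TPM against a highest of 11.6 TPM for *Snhg12*, and the lowest of *Snhg12* was 7.0 TPM against a highest of 4.57 TPM for *Kcnq1ot1*. The order of the means also held with the longest or the median transcript as the length, although the median raised *Malat1* to 2604 TPM and *Neat1* to 100 TPM. With the longest transcript, the ranges over mice of *Neat1*, 13.9 to 30.2 TPM, and *Snhg12*, 8.46 to 14.2 TPM, overlapped. *Malat1* and *Neat1* are neighbours on the chromosome, but *Neat1* had only 18.0%, 12% and 8.55% of the counts of *Malat1* in the 3 CTL mice, in the order of their replicate numbers, and 15.7%, 10.1% and 14.1% of them in the 3 *Prdm1*-CKO mice, over a longer exon.

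Only some of the 5 genes ranked high among noncoding RNAs. Of 3600 genes with counts that GENCODE M21 types as long noncoding, *Malat1* ranked 2 by share of counts, *Gas5* ranked 6, *Neat1* ranked 7 and *Kcnq1ot1* ranked 19, whereas *Snhg12* ranked 179. By TPM, the ranks were 3 for *Malat1*, 14 for *Gas5*, 65 for *Neat1*, 239 for *Snhg12* and 742 for *Kcnq1ot1*. The word abundant therefore does not describe *Snhg12*, and it describes *Kcnq1ot1* only through its length. *Malat1* ranked 2 in each mouse taken alone, while *Kcnq1ot1* ranged from 12 to 42. The ranked types include processed transcripts, to which *Gas5* belongs, but also genes known to encode proteins, such as *Cct6a* at rank 5, *Tmem134* at rank 9 and *Ifi30* at rank 10, so the ranks of *Gas5* and *Neat1* depend on this typing. The only gene above *Malat1* by share was *Gm26917*, at 0.237% to 0.526% of counts, which lies on chromosome 17 as does CT010467.1.

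*Malat1* was the most abundant of the 5, and its difference between genotypes did not pass the test. It had 21571, 12862 and 11561 counts in CTL replicates 1 to 3, equal to 1478, 1524 and 1711 CPM. In *Prdm1*-CKO replicates 1 to 3 it had 18488, 17325 and 21430 counts, equal to 1042, 1762 and 1468 CPM. *Prdm1*-CKO replicate 1 was the lowest and *Prdm1*-CKO replicate 2 the highest of all mice, with the CTL mice close together between them. The means were 1571 ± 123 CPM in CTL and 1424 ± 362 CPM in *Prdm1*-CKO mice (SD, n = 3 each). The log2 fold change was -0.14 with an SE of 0.19 and a 95% interval of -0.58 to 0.29, and the adjusted p was 0.996 in edgeR's quasi-likelihood test with Benjamini-Hochberg adjustment over 14555 genes. Without *Prdm1*-CKO replicate 1 the sign turned, to 0.05. That mouse also had the lowest share of CT010467.1, at 5.14%, and of mitochondrial genes, at 2.11%. With these genes left out of the counts, the log2 fold change of *Malat1* over all mice was -0.15. As a share of all counts, *Malat1* took 0.154% ± 0.00658 in CTL and 0.144% ± 0.0344 in *Prdm1*-CKO mice (exact permutation test, two-sided p = 0.7, where the smallest p for 3 against 3 is 0.1). The Wilson 95% interval of the share in a mouse was at most 1.82% of its value to either side, and such intervals cover counting error only. In bulk RNA a lower share of cells with a transcript and less of it per cell cannot be told apart.

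*Neat1* was spread over CTL mice more widely than over *Prdm1*-CKO mice, and its means were close. It stood at 266, 183 and 146 CPM in CTL replicates 1 to 3, from 3886, 1542 and 989 counts. It stood at 164, 177 and 206 CPM in *Prdm1*-CKO replicates 1 to 3, from 2909, 1742 and 3015 counts. All *Prdm1*-CKO values lay inside the range of CTL mice, whose lowest and highest values were the lowest and highest of all. The log2 fold change was -0.12 with an SE of 0.23 and a 95% interval of -0.65 to 0.40 (edgeR adjusted p = 0.996). Without CTL replicate 1 it was 0.14. A change of *Neat1* by a factor of 0.639 down or 1.32 up is within this interval. As a share of all counts, *Neat1* took 0.0197% ± 0.00697 in CTL and 0.0184% ± 0.00163 in *Prdm1*-CKO mice (exact permutation test, two-sided p = 0.8).

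*Kcnq1ot1* had the lowest mean in *Prdm1*-CKO relative to CTL mice among the 5 genes, and the difference did not pass the test. It stood at 81.4, 147 and 88.3 CPM in CTL replicates 1 to 3, from 1188, 1245 and 597 counts. It stood at 35.4, 96.0 and 69.2 CPM in *Prdm1*-CKO replicates 1 to 3, from 629, 944 and 1010 counts. The groups overlap because *Prdm1*-CKO replicate 2 lay above CTL replicates 1 and 3. The highest mouse was CTL replicate 2, the library that stands apart, and the lowest was *Prdm1*-CKO replicate 1. The means were 106 ± 36.3 CPM and 66.9 ± 30.3 CPM (SD, n = 3 each), and the log2 fold change was -0.66 with an SE of 0.37 and a 95% interval of -1.52 to 0.19 (edgeR adjusted p = 0.996). The unadjusted p of *Kcnq1ot1* was 0.112, the smallest of the 5 genes. The log2 fold change was -0.36 without CTL replicate 2, -0.35 without *Prdm1*-CKO replicate 1 and -1.01 without *Prdm1*-CKO replicate 2. As a share of all counts it took 0.0104% ± 0.00351 in CTL and 0.00672% ± 0.00299 in *Prdm1*-CKO mice (exact permutation test, two-sided p = 0.3). Its counts were 42.1%, 64.8% and 40.2% of those of *Gas5* in CTL replicates 1 to 3, whereas in *Prdm1*-CKO replicates 1 to 3 they were 17.2%, 45.9% and 35.6%.

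*Gas5* was the steadiest of the 5 genes. It stood at 193, 228 and 220 CPM in CTL replicates 1 to 3, from 2819, 1922 and 1486 counts. It stood at 205, 209 and 194 CPM in *Prdm1*-CKO replicates 1 to 3, from 3647, 2057 and 2835 counts. All *Prdm1*-CKO mice lay inside the range of CTL mice, and the highest mouse was only 1.18-fold above the lowest. The means were 214 ± 18.1 CPM in CTL and 203 ± 7.82 CPM in *Prdm1*-CKO mice (SD, n = 3 each). The log2 fold change was -0.07 with an SE of 0.14 and a 95% interval of -0.39 to 0.24, the narrowest of the 5 genes (edgeR adjusted p = 0.996). Fold changes below 0.765 and above 1.18 lie outside this interval. As a share of all counts, *Gas5* took 0.0210% ± 0.00121 in CTL and 0.0205% ± 0.00131 in *Prdm1*-CKO mice (exact permutation test, two-sided p = 0.7).

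*Snhg12* was near the lower end of what these libraries can compare. It had 86, 60 and 56 counts in CTL replicates 1 to 3, equal to 5.89, 7.11 and 8.29 CPM. It had 98, 72 and 150 counts in *Prdm1*-CKO replicates 1 to 3, equal to 5.52, 7.32 and 10.3 CPM. The lowest and the highest mouse were both *Prdm1*-CKO mice, so the range of that group enclosed all CTL values. The log2 fold change was 0.12 with an SE of 0.39 and a 95% interval of -0.78 to 1.03 (edgeR adjusted p = 0.996), and it was -0.14 without *Prdm1*-CKO replicate 3. Counting error alone gave a Wilson 95% interval of 16.1% to 26.4% of the share to either side in single mice. As a share of all counts, *Snhg12* took 0.000695% ± 8.84e-05 in CTL and 0.000774% ± 0.000217 in *Prdm1*-CKO mice (exact permutation test, two-sided p = 0.7).

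**Figure D2:**
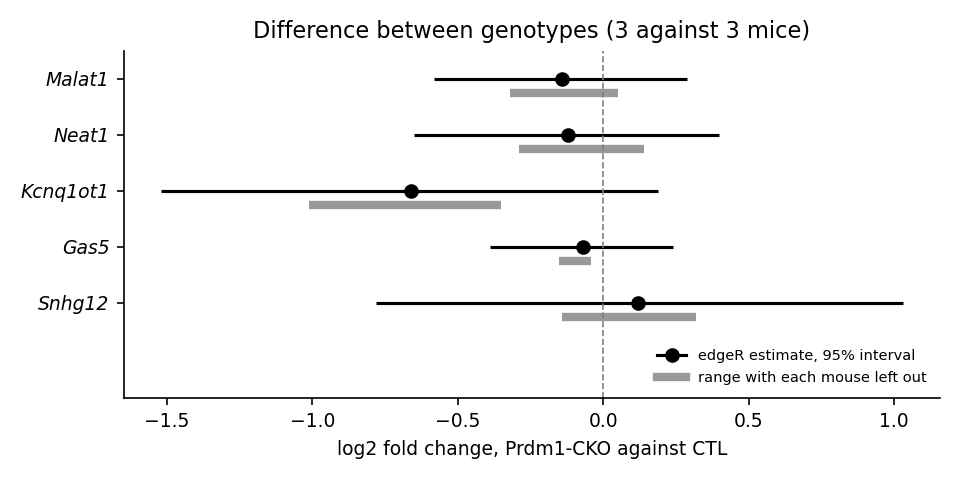
Log2 fold change of the 5 genes, *Prdm1*-CKO against CTL mice, with black points and lines for the edgeR estimate and its 95% interval and grey bars for the range of estimates when each mouse is left out in turn. Every 95% interval includes 0, from the narrowest in *Gas5*, -0.39 to 0.24, to the widest in *Snhg12*, -0.78 to 1.03.

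None of the 5 genes passed an adjusted p of 0.05 or an unadjusted p of 0.05 in edgeR's quasi-likelihood test, and none had groups without overlap. In alternative edgeR fits, *Kcnq1ot1* had an unadjusted p of 0.0146 with the replicate number as a block, 0.0341 without an expression filter and 0.0358 without *Prdm1*-CKO replicate 2. Across the 14555 genes tested, 0% passed the adjusted threshold in edgeR, while DESeq2 called 7 genes higher and 2 lower. An unadjusted p of 0.05 was passed by 0.928% of genes higher and 1.42% lower in *Prdm1*-CKO mice. The groups were wholly apart with *Prdm1*-CKO higher in 4.56% of genes and with *Prdm1*-CKO lower in 3.86%. With 5 genes, a count of 0 lies near these shares. Of the 5 genes, 4 had a log2 fold change below 0, beside a median of 0.01 over all genes tested.

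The spread among mice differed widely between the 5 genes. It was measured as the SD of log2 CPM within groups, pooled over both groups, and its median was 0.40 over the 14555 genes tested and 0.25 over the 5948 of them with a mean log2 CPM of 5 or more. *Gas5* had an SD of 0.10, with a smaller SD in 2.43% of tested genes and in 5.16% of the genes in the higher range. *Malat1* had 0.28, *Neat1* had 0.33 and *Snhg12* had 0.35, all below the median of tested genes, although *Malat1* and *Neat1* lay above the median of the 5948 genes in the higher range. *Kcnq1ot1* had 0.61, above that of 70.6% of tested genes and of 94.7% of genes in the higher range, and its highest mouse was 4.16-fold above its lowest. With each mouse left out in turn, the share of tested genes steadier than *Gas5* stayed between 0.611% and 6.56%. Without CTL replicate 2, the library that stands apart, the median of tested genes was 0.32, and *Malat1* at 0.33, *Neat1* at 0.38 and *Snhg12* at 0.41 lay above it. *Snhg12* also lay above the median without CTL replicate 3, at 0.37 against 0.34, and without *Prdm1*-CKO replicate 2, at 0.41 against 0.40. For *Malat1* the SD dropped to 0.14 and for *Kcnq1ot1* to 0.43 without *Prdm1*-CKO replicate 1. For *Neat1* it dropped to 0.19 without CTL replicate 1.

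The coefficient of variation between mice was above that from counting alone in each of 3 genes compared, but by little for *Snhg12* in CTL mice. In *Kcnq1ot1* the coefficient of variation was 34.4% in CTL and 45.4% in *Prdm1*-CKO mice, against 2.83% to 4.09% from counting alone. In *Gas5* it was 8.49% and 3.85%, against 1.66% to 2.59% from counting. In *Snhg12* it was 16.9% and 31.1%, against 8.16% to 13.4% from counting, the highest counting error of the 5 genes. These counting values run from the highest to the lowest count of all 6 mice. With 3 mice in a group, each SD is itself imprecise, and 16.9% for *Snhg12* in CTL mice cannot be told from counting error.

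**Figure D3:**
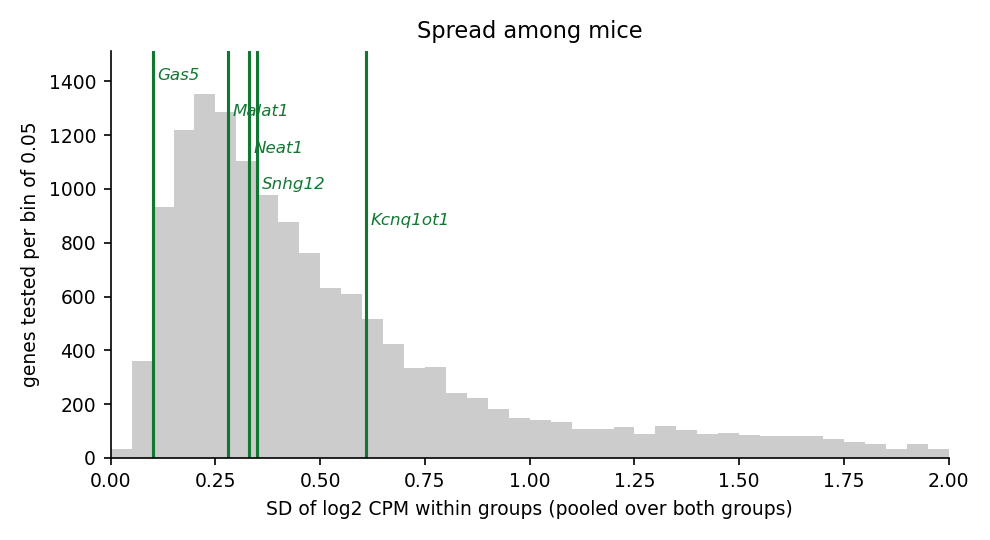
Spread among mice of the 14555 genes tested, as a histogram of the SD of log2 CPM within groups in bins of 0.05, with green lines at the 5 genes; values over 2 lie beyond the axis. *Gas5*, at 0.10, stands at the lower edge and *Kcnq1ot1*, at 0.61, on the upper slope.

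The mice at the extremes were shared by some of the 5 genes and not by others. In *Prdm1*-CKO replicate 1, *Kcnq1ot1* was at -1.16 relative to its own mean of 6 mice on the log2 scale, *Malat1* was at -0.50 and *Snhg12* at -0.38, each at its lowest. In the same mouse *Neat1* was at -0.19 and *Gas5* at -0.02. In CTL replicate 2, *Kcnq1ot1* was at 0.89 and *Gas5* at 0.13, each at its highest, while *Malat1* was at 0.05, *Neat1* at -0.03 and *Snhg12* at -0.03. The genes most like each member were found among 5948 genes as those with the smallest root mean square difference of centred log2 CPM over the 6 mice. For *Kcnq1ot1* the nearest was *Xist*, the noncoding RNA of X inactivation in females, at a difference of 0.139, where the root mean square of *Kcnq1ot1* itself was 0.616. *Xist* was at 0.84 in CTL replicate 2 and -0.90 in *Prdm1*-CKO replicate 1, the same 2 extreme mice as *Kcnq1ot1*. *Xist* was picked by these same values, so the shared extremes are part of the choice and no separate finding. The next were *A130071D04Rik*, a transcript of unknown function, at 0.161, and *Ubn2*, a histone chaperone gene, at 0.185. These points share 6 libraries, of which CTL replicate 2 stands apart.

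For the other members the nearest genes were closer, as their own variation was smaller. *Malat1* was nearest to *Rptor*, a subunit of mTORC1, at 0.044, then to *Irak1* at 0.059 and *Stim2*, a calcium sensor, at 0.066. *Neat1* was nearest to *Txk*, a T cell kinase, at 0.070, then to *Cdv3* at 0.075 and *Lrig2* at 0.082. *Gas5* was nearest to *Rnaseh2a* at 0.041 and to *Sh3glb2* and *Rcbtb2*, both at 0.042. *Snhg12* was nearest to *Ptpra*, a tyrosine phosphatase, at 0.103, then to *Trerf1* at 0.126 and *Nprl3* at 0.135. A flat gene such as *Gas5*, with a root mean square of only 0.087, is near to any other flat gene, so its small differences say little.

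**Figure D4:**
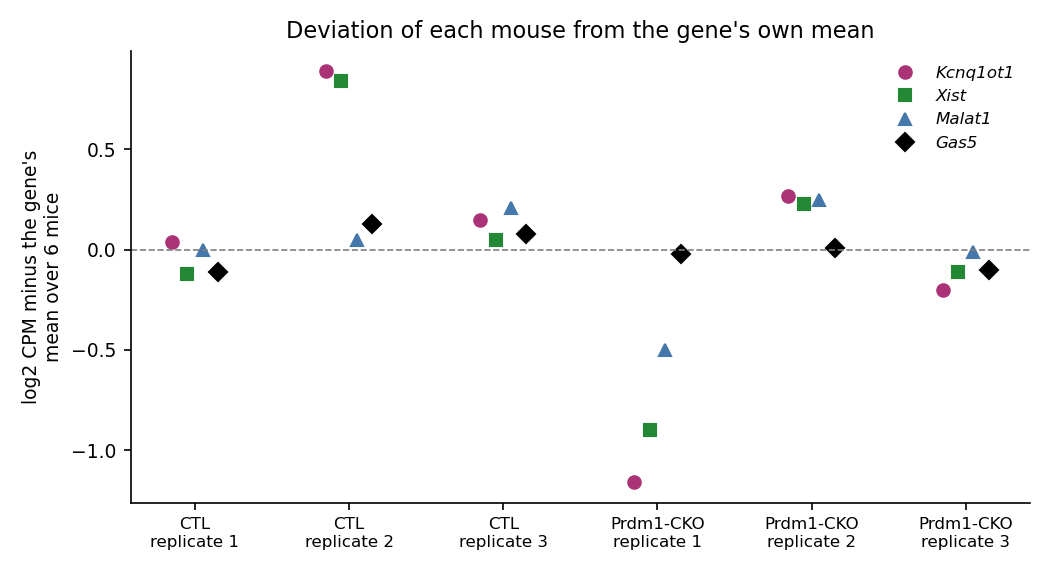
Deviation of each mouse from the gene's own mean of 6 mice, in log2 CPM, for *Kcnq1ot1*, *Xist*, *Malat1* and *Gas5*. *Kcnq1ot1* and *Xist* are highest in CTL replicate 2, at 0.89 and 0.84, and lowest in *Prdm1*-CKO replicate 1, at -1.16 and -0.90, while *Gas5* stays between -0.11 and 0.13. *Xist* was chosen by these values as the nearest gene to *Kcnq1ot1*.

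Genes that work with these RNAs, share their class or lie in the *Kcnq1* domain were described from 6 lists. In the main edgeR fit, no gene of these lists passed an unadjusted p of 0.05 in either direction. Over all genes tested, 0.928% passed as higher and 1.42% as lower in *Prdm1*-CKO mice. Some alternative fits, given at the end, did call single genes of 3 lists. Other snoRNA host genes moved little as a group: of 18 listed, *Gas5* and *Snhg12* included, 14 were tested, with 8 above and 6 below 0 and a median log2 fold change of 0.07, beside 0.01 over all genes. The extremes were *Snhg10* at 1.06 and *Snhg20* at 0.45, and *Snhg14* at -0.95 and *Epb41l4aos* at -0.40. *Snhg10* had 24, 8 and 2 counts in CTL replicates 1 to 3, against 33, 23 and 30 in *Prdm1*-CKO replicates 1 to 3. It was the only host gene in which the CPM of the lowest *Prdm1*-CKO mouse exceeded that of every CTL mouse. That is 1 of 14 tested host genes, beside 4.56% of all genes tested. Nonsense-mediated decay factors, whose substrates include spliced *Gas5*, had a median of -0.24 over 10 genes, with 3 above and 7 below 0. The extremes there were *Upf3a* at 0.57 and *Upf2* at 0.24, and *Smg6*, the endonuclease of this pathway, at -0.52 and *Upf1*, its helicase, at -0.49. *Smg9*, at -0.46, was the only decay factor with all *Prdm1*-CKO mice below the CTL mice. Its margin was too small to show at 3 digits (42.2 CPM in the nearest mouse of each group). That is 1 of 10 decay factors, beside 3.86% of all genes tested.

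The genes listed as protein partners of *Malat1* and *Neat1* spanned a narrower range of log2 fold changes, with SEs of 0.13 to 0.32. The noncoding genes with the largest changes, *Nron*, *Snhg10* and *Snhg14*, had 2 to 38 counts per mouse and SEs of 0.70 to 0.78. These ranges are therefore not set side by side at like precision. All 13 genes of the nuclear speckle list were tested, with a median of 0.01 and a range of -0.17 to 0.19. They ran from *Srrm1* at -0.17 and *Son*, the speckle scaffold, at -0.14 to *Srsf7* at 0.12 and *Srsf3* at 0.19, both splicing factors. *Elac2*, at -0.05, is counted in this list but is not established as a speckle protein. All 14 paraspeckle genes were tested, with a median of -0.08 and a range of -0.21 to 0.21. *Sfpq*, which binds *Neat1* in the paraspeckle core, was at 0.21 and *Matr3* at 0.15, while *Smarca4* and *Cpsf6* were both at -0.21. *Smarca4*, a chromatin remodeller, stood at 183 ± 8.19 CPM in CTL and 159 ± 10.2 CPM in *Prdm1*-CKO mice, with all *Prdm1*-CKO mice below all CTL mice (edgeR adjusted p = 0.996). In the speckle list *Pnn*, at -0.14, also had every *Prdm1*-CKO mouse below every CTL mouse, and 0 genes of either list lay wholly above. These are 1 of 14 genes in the paraspeckle list and 1 of 13 in the speckle list. Over all genes tested, 3.86% lay wholly below and 4.56% wholly above.

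*Kcnq1ot1* is known to silence some genes of the *Kcnq1* domain on the paternal chromosome. Of 12 genes of this domain, 6 passed the expression filter, with a median of 0.06 and a range of -0.09 to 0.35. The others did not pass it, at no more than 28 counts in any mouse, so these values do not cover them. Among these, *Phlda2* had 2, 16 and 1 counts in CTL replicates 1 to 3 and 0 in every *Prdm1*-CKO mouse. Mean CPM in CTL and *Prdm1*-CKO mice was 0.578 and 0.113 in *Cdkn1c*, 0.206 and 0.978 in *Slc22a18*, and 0.163 and 0.444 in *Trpm5*. *Kcnq1* had counts only in *Prdm1*-CKO replicate 3, and *Th* had none. *Ascl2*, a transcription factor with a known role at the onset of Tfh differentiation, was at 0.35 and varied from 2.37 to 9.77 CPM among mice. *Cd81* was at 0.17, *Tspan32* at -0.08 and *Osbpl5* at -0.09. *Tspan32*, a tetraspanin of blood cells, stood at 497 ± 91.5 CPM in CTL and 471 ± 47.0 CPM in *Prdm1*-CKO mice. Of 30 other well-known long noncoding RNAs, 19 were tested, with 7 above and 12 below 0 and a median of -0.20. The extremes were *Rn7sk*, which restrains transcription elongation, at 0.75 and *Mir155hg*, the host of miR-155, at 0.21, and *Nron*, a noncoding repressor of NFAT, at -1.74 and *Ifngas1*, a neighbour of the interferon-γ gene, at -0.81. *Nron* had 17, 22 and 8 counts in CTL replicates 1 to 3, against 10, 7 and 3 in *Prdm1*-CKO replicates 1 to 3. No other gene of this list had every *Prdm1*-CKO mouse below every CTL mouse by CPM, and the adjusted p of *Nron* was 0.996 in edgeR. That is 1 of 19 tested, beside 3.86% of all genes tested. *Meg3* and *Terc*, which did not pass the expression filter, had every *Prdm1*-CKO mouse above every CTL mouse. Their counts were at most 19 and 6 in a mouse.

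**Figure D5:**
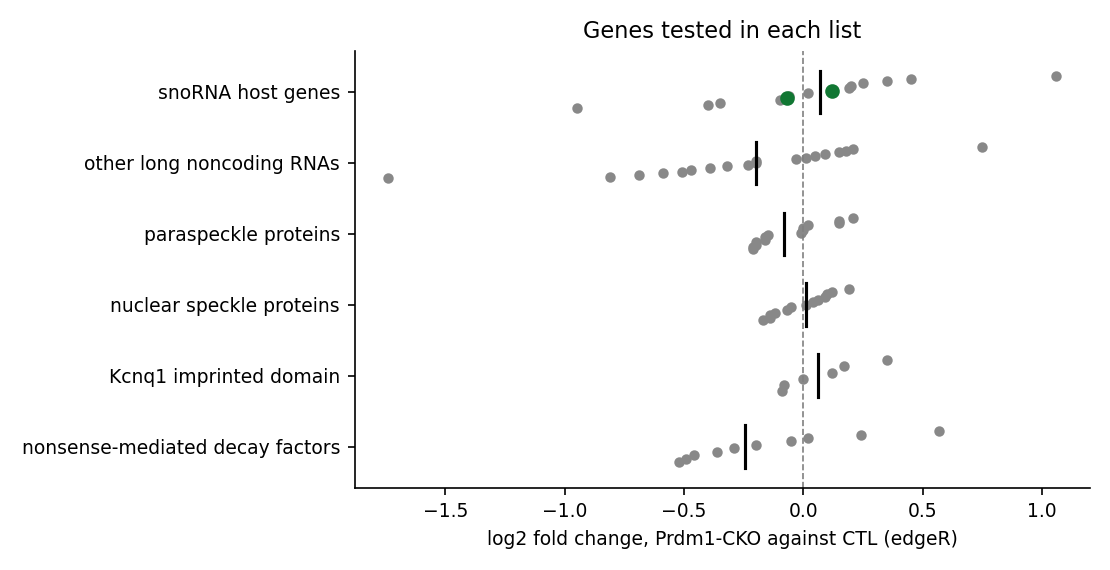
Log2 fold change of each tested gene in 6 lists, *Prdm1*-CKO against CTL mice, 1 point per gene, with a black line at the median of the list and green points for *Gas5* and *Snhg12*. Genes of the speckle and paraspeckle lists lie between -0.21 and 0.21, with SEs of 0.13 to 0.32. The noncoding genes reach from -1.74 in *Nron* to 1.06 in *Snhg10*, with SEs of 0.78 and 0.71 there.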

How the data were processed

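Tfh cells of 3 CTL and 3 *Prdm1*-CKO mice were sorted from spleen, and libraries were made from 50 ng of RNA by Smart-seq2 and sequenced on a NextSeq 500 as paired reads of 25 bases. The authors deposited raw counts per gene, without normalization, made with featureCounts and GENCODE mouse version 9. The submitters' processing notes name STAR 2.4.2a and GRCm38.p6. Strand, multiply aligned reads and pair counting are not given in the sources used here, and reads shared between genes or with near-identical copies may be lost or split. Symbols and lengths came from GENCODE M21, which held 53274 of 53379 identifiers.

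Counts were tested with edgeR 4.0.16 in R 4.3.3 (TMM, filterByExpr, quasi-likelihood F test, two-sided, Benjamini-Hochberg adjustment over 14555 genes), with no covariate. CPM used TMM factors, log2 CPM used a prior count of 2, and shares are percentages of all gene counts of a library. The fit was tested on simulated data. A count of 3, taken as the floor of a library, corresponds to 0.177 to 0.420 CPM. Alternatives were DESeq2 1.42.0, its size factors, voom with quality weights from limma 3.58.1, other filters, exclusion of CT010467.1 and mitochondrial genes, a replicate block, other lengths for TPM and omission of each mouse; the median transcript length was added after seeing the data. The named genes are the 5 members, the 2 highest and 2 lowest fold changes of each list with any gene under an unadjusted p of 0.05, and the 3 nearest genes of each member. The untested genes of the *Kcnq1* domain, *Elac2*, the genes without overlap between groups and *Gm26917* were named after their values were seen. The members and lists were chosen with earlier results of these data known. The labels do not say that mice came from separate litters or cages, and p-values measure the spread between these mice.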

Additional observations from a re-analysis of the deposited data

How the results depend on the processing

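The log2 fold changes of *Kcnq1ot1* and *Gas5* kept their sign in every alternative run, those of *Malat1*, *Neat1* and *Snhg12* in all but the omission of a mouse, and none of the 5 passed an adjusted p of 0.05. With each mouse left out, the range was -0.32 to 0.045 for *Malat1*, -0.29 to 0.14 for *Neat1*, -1.01 to -0.35 for *Kcnq1ot1*, -0.15 to -0.036 for *Gas5* and -0.14 to 0.32 for *Snhg12*. The difference in share ranged from -0.0279 to 0.00644 percentage points for *Malat1*, -0.00423 to 0.00256 for *Neat1*, -0.00514 to -0.00164 for *Kcnq1ot1* (the latter without CTL replicate 2, against -0.00367 with all mice), -0.000999 to 0.000301 for *Gas5* and -3.75e-05 to 0.000178 for *Snhg12*. With CT010467.1 and mitochondrial genes out of the denominator, the difference went from -0.0108 to -0.0175 points for *Malat1* and from -0.000447 to -0.00137 for *Gas5*. Over all genes, DESeq2 called 7 higher and 2 lower at an adjusted p of 0.05, and edgeR without a filter called 1 higher. At an unadjusted p of 0.05, genes higher numbered 264 with DESeq2, 426 without a filter, 268 with voom and 58 to 580 with each mouse left out, and genes lower 417, 510 without a filter and 107 to 617 with each mouse left out. The counts of 580 and 477 without CTL replicate 1 were far from the 135 and 207 of all mice. The cause of these shifts was not tested. Among other noncoding RNAs, 2 passed without a filter (*Meg3* and *Terc*), 1 with voom (*Peg13*), 1 with the replicate block (*Xist*) and 0 to 1 with each mouse left out. In the *Kcnq1* domain 1 gene, *Phlda2*, passed with DESeq2 and without a filter, from 2, 16 and 1 counts in CTL mice and 0 in the others. Of decay factors 1 passed with voom (*Upf3a*) and 0 to 3 with each mouse left out. With each mouse left out, the fold change also changed sign in 9 genes named from the lists, with ranges of -0.12 to 0.62 in *Mir155hg*, -0.00018 to 0.43 in *Sfpq*, -0.090 to 0.36 in *Matr3*, -0.29 to 0.0026 in *Srrm1*, -0.10 to 0.36 in *Cd81*, -0.19 to 0.087 in *Tspan32*, -0.0059 to 1.20 in *Ascl2*, -0.26 to 0.078 in *Osbpl5* and -0.041 to 0.79 in *Upf2*. In *Upf2* voom gave -0.12. With the longest transcript as the length, *Malat1* was at 469, *Gas5* at 179 and *Snhg12* at 10.5 TPM. With the median it was 2604 for *Malat1*, 100 for *Neat1*, 0.979 for *Kcnq1ot1* and 350 for *Gas5*, and these settings differ from the others only in the lengths.

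Mice with the same number had residual correlations across genes of 0.158, 0.0282 and 0.016, against -0.131 to 0.0829 for mice with different numbers. The highest value thus belonged to mice with the same number. All were small, so the numbers were not taken as pairs in the main fit, and a replicate block was run as an alternative. With the replicate block, an unadjusted p of 0.05 was passed by 175 genes upward and 196 downward, with 0 past the adjusted threshold, and log2 fold changes of -0.17 for *Malat1*, -0.084 for *Neat1* and -0.72 for *Kcnq1ot1*. Depth limits *Snhg12* most, at 56 to 150 counts per mouse.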

Other observations

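Other noncoding genes with a large share of the counts differed in steadiness as well. *AW112010*, an interferon-induced gene annotated as noncoding, ranked 3 by share among long noncoding genes, at 0.0497% to 0.0635% of counts, with 563 ± 97.3 CPM in CTL and 523 ± 33.9 CPM in *Prdm1*-CKO mice (SD, n = 3 each). *Xist* ranked 4, at 0.0279% to 0.0871%, with 620 ± 235 CPM and 436 ± 159 CPM and a log2 fold change of -0.51 with an SE of 0.33. *Gm2682* ranked 8, with 198 ± 59.7 CPM and 140 ± 35.7 CPM and a log2 fold change of -0.50 with an SE of 0.27. The groups of *Xist* overlap, and its adjusted p was 0.996 in edgeR's quasi-likelihood test. These genes were chosen by rank after their values were seen.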
